A study of Drosophila melanogaster with 4 samples.

Results

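The centromere-proximal 3 Mb of chromosome arm 3L was examined for its HP2 binding regions. Its members were the enriched regions, here called clusters, of the authors' combined list that lay on 3L with a midpoint above position 21543557, on FlyBase release 5, where the assembled arm ends at 24543557. There were 303 such clusters among 12660 in the whole combined list. HP2 was mapped by chromatin immunoprecipitation with sequencing (ChIP-seq) with the antibody Ab2-90, using nuclei of third-instar larvae of the wild-type strain Oregon-R-modENCODE. There were 2 HP2 ChIP libraries and 2 input libraries (sheared chromatin without precipitation), numbered 1 and 2 in each group. All 4 libraries share this strain, genotype and stage, and the labels name larvae and no single tissue, so a library averages over the cells that were collected.

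HP2 is a chromosomal protein encoded by Su(var)2-HP2 that was found through its binding to HP1a, the protein that reads methylated histone H3 in heterochromatin. Mutations in Su(var)2-HP2 suppress position-effect variegation, the patchy silencing of a gene placed next to heterochromatin. The proximal end of 3L is where gene-rich euchromatin passes into the repeat-rich heterochromatin that flanks the centromere of chromosome 3. The assembled arm stops inside that heterochromatin, and further sequence assigned to it forms the separate scaffold 3LHet.

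The deposited lists give a start, an end and a score for each cluster. Read counts are not part of them, so library depth is unknown. The sources used here do not state the scale of the score. Its size was compared only within a list, and between lists only its ranks were correlated. Each ChIP library was called against the input of the same number, per the labels. The lists hold 4092 clusters in replicate 1, 7017 in replicate 2 and 12660 in the combined list. The labels do not say whether the replicates are separate larval collections, and their spread may measure technical variation alone. Cover is the percentage of a stretch of sequence that lies under clusters. How much of a sequence could be mapped is not recorded in the lists, so a low cover does not by itself show that HP2 is absent.

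HP2 clusters were denser, wider and higher in score in the proximal 3 Mb than in the rest of 3L. In replicate 1 the cover of the proximal 3 Mb was 18.1% and in replicate 2 it was 39.8%, against 4.70% and 8.23% in the 21.5 Mb that make up the rest of the arm. The cover was thus 3.85-fold higher in replicate 1 and 4.83-fold higher in replicate 2, a mean of 4.34 ± 0.694-fold (SD, n = 2). The excess over equal cover is larger than the spread between the replicates. The authors' combined list gave 45.4% against 16.1%, or 2.81-fold.

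Clusters were both more frequent and longer. The proximal 3 Mb held 186 clusters of replicate 1 and 244 of replicate 2, or 62.0 and 81.3 per Mb, against 23.1 and 37.9 per Mb in the rest of 3L. The density was 2.42 ± 0.384-fold higher (SD, n = 2). The median width was 2.20 kb in replicate 1 and 2.91 kb in replicate 2, against 1.94 kb and 1.95 kb in the rest of the arm. The ratio of medians was 1.13 in replicate 1 and 1.49 in replicate 2, so the gain in width was above 1 in both libraries but its size varied between them (mean 1.31 ± 0.255, n = 2). The median score was 0.664 and 0.823 in the proximal 3 Mb, against 0.505 and 0.517 in the rest of the arm, higher by 0.159 in replicate 1 and by 0.306 in replicate 2. Neighbouring clusters lay closer together, with a median gap of 4.21 kb and 2.01 kb against 19.3 kb and 9.12 kb. An exact two-sided sign-flip test over 2 libraries cannot give a p under 0.5, so no p is given for these or any later comparisons.

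The excess was not spread over the 3 Mb but fell into a dense inner part and a sparse outer part. Counted in 100 kb windows from the end of the arm, the first 15 windows were covered to between 11.1% and 52.5% in replicate 1 (median 37.4%) and between 50.2% and 84.6% in replicate 2 (median 70.1%). The next 15 windows were covered to between 0 and 5.87% in replicate 1 (median 2.11%) and between 0 and 21.5% in replicate 2 (median 9.39%). In each replicate every inner window lay above every outer window. The split at 1.5 Mb was placed after these windows were seen, so the contrast between the 2 parts describes the profile and is no test.

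**Figure D1:**
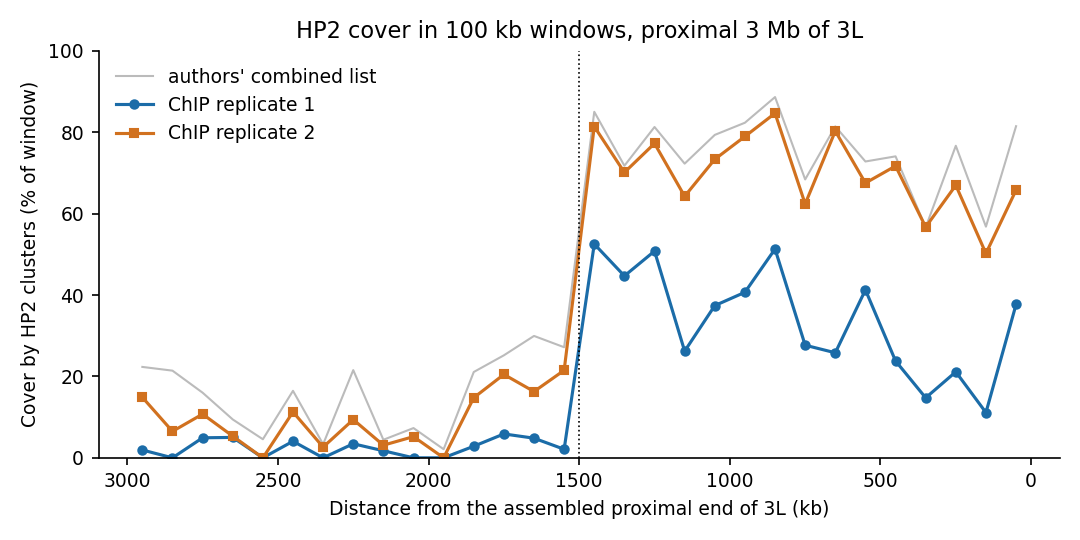
Cover by HP2 clusters (percent of each 100 kb window) against distance from the assembled proximal end of 3L in kb, with the arm end at the right. Points are single windows of ChIP replicate 1 and replicate 2, the grey line is the authors' combined list and the dotted line marks 1500 kb. Replicate 1 reaches at most 5.87% and replicate 2 at most 21.5% to the left of the line. Within each replicate, all windows to its right lie above that replicate's value.

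Taken as one stretch, the inner 1.5 Mb (23043558 to 24543557) had a cover of 33.8% in replicate 1 and of 70.1% in replicate 2. The outer 1.5 Mb (21543558 to 23043557) was covered to 2.45% and 9.47%, which straddles the 4.70% and 8.23% of the rest of 3L. Relative to the rest of the arm, the outer part was 0.521-fold in replicate 1 and 1.15-fold in replicate 2, so the replicates disagreed on its direction. The split at 1500 kb left the end of the densely covered sequence of replicate 2 in the outer part. In 20 kb steps from 1500 to 1540 kb, replicate 2 was covered to 79.4% and 28.1%, and replicate 1 to 10.5% and 0. The fold without these steps was not computed. The inner part held 167 clusters of replicate 1 and 179 of replicate 2, and the outer part 19 and 65. Replicate 2 thus had 3.42 times as many clusters as replicate 1 in the outer part and 1.07 times as many in the inner part.

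Within the inner part the end of the arm was not the most densely covered place. The innermost 500 kb had a cover of 21.7% in replicate 1 and of 62.3% in replicate 2. From 500 to 1000 kb the cover was 37.3% and 74.7%, and from 1000 to 1500 kb it was 42.3% and 73.3%. By mean cover of the replicates, the 5 leading windows were 23643558 to 23743557 (51.3% and 84.6%), 23043558 to 23143557 (52.5% and 81.4%), 23243558 to 23343557 (50.8% and 77.2%), 23543558 to 23643557 (40.7% and 78.9%) and 23143558 to 23243557 (44.7% and 70.1%). The least covered window of the inner part, at 24343558 to 24443557, had 11.1% and 50.2%. Replicate 2 exceeded replicate 1 by a factor of 1.52 to 4.51 across the 15 inner windows, and the 5 largest ratios included the windows from 100 to 500 kb. Over the 30 windows Spearman's rho between the replicates was 0.92, as a description. The 2 parts form separate groups of windows, and within the 15 inner and the 15 outer windows rho was 0.68 and 0.65.

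The change between the parts took place over a short distance. In 20 kb steps going out from the arm end, replicate 1 was covered to 50.4% at 1480 to 1500 kb, 10.5% at 1500 to 1520 kb and 0 from 1520 to 1660 kb. Replicate 2 was covered to 92.4%, 79.4% and 28.1% from 1480 to 1540 kb in the same steps, and to 0 from 1540 to 1600 kb. Going out from 1400 kb, a start chosen after the windows were seen because replicate 1 also had gaps of over 20 kb further in, the first gap of at least 20 kb was taken as the edge. The dense stretch so ended at 23041453 in replicate 1 (1502 kb from the arm end) and at 23007148 in replicate 2 (1536 kb), 34.3 kb apart. A gap of 172 kb without a replicate 1 cluster and one of 67.2 kb without a replicate 2 cluster followed. At 1600 to 1900 kb replicate 2 had a thin shoulder, with 3 windows covered to 16.3%, 20.5% and 14.8% against 8.23% in the rest of 3L. Replicate 1 had 4.83%, 5.87% and 2.85% in these windows, around the 4.70% of the rest of 3L. Its gap of 172 kb reached into the first of them.

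**Figure D2:**
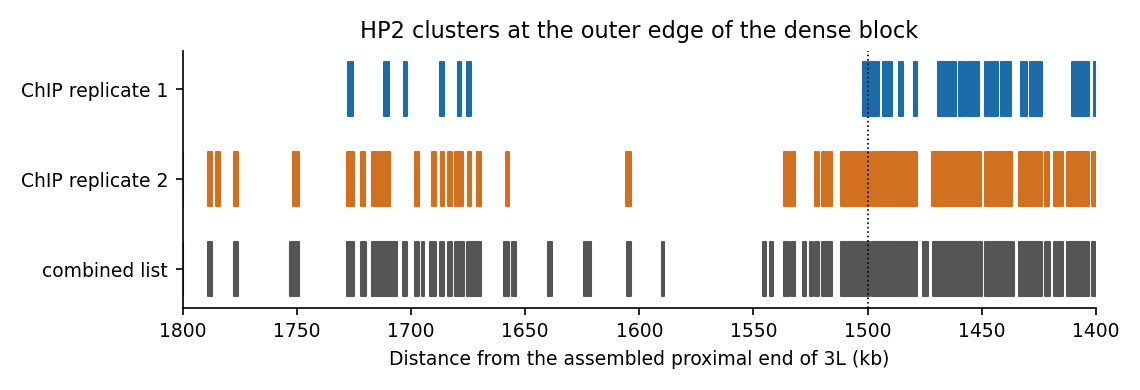
Clusters of ChIP replicate 1, ChIP replicate 2 and the authors' combined list drawn to scale between 1400 and 1800 kb from the assembled proximal end of 3L (x axis, kb). Each block is 1 cluster, and the dotted line marks 1500 kb. Replicate 1 has no cluster between 1520 and 1660 kb, and replicate 2 has none between 1540 and 1600 kb.

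The sparsest stretch began at the outer end of this shoulder, within the window at 1800 to 1900 kb, and ran outwards. Replicate 1 had no cluster for 273 kb (22401467 to 22674843) and replicate 2 none for 239 kb (22466429 to 22705225), and the combined list had a gap of 142 kb at 22565459 to 22707743. Stretches of this size also occurred in the rest of 3L, where the longest gap was 412 kb in replicate 1 and 332 kb in replicate 2. The 5 windows of lowest mean cover were 22543558 to 22643557 and 21943558 to 22043557, both at 0 in either replicate, then 22143558 to 22243557 (0 and 2.64%), 22343558 to 22443557 (1.73% and 3.10%) and 22443558 to 22543557 (0 and 5.21%). In the inner part the longest gap was 46.8 kb in replicate 1 and 17.1 kb in replicate 2. These gaps lay at one place, 24205328 to 24252124 and 24206669 to 24223733, where the combined list also had its longest inner gap of 17.2 kb.

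Widths of the 303 combined clusters followed the same division. Clusters of 10 kb or more numbered 34 in the proximal 3 Mb, against 2 in the rest of 3L, which is 7.18 times as long. All 34 lay in the inner part, and they made up 40.2% of the summed width of the 303. In the inner part 75 of 187 clusters (40.1%) reached 5 kb, against 2 of 116 (1.72%) in the outer part and 60 of 1727 (3.47%) in the rest of the arm. The median width was 3.85 kb in the inner and 1.74 kb in the outer part. In the replicate lists the inner median was 1.13-fold the outer one in replicate 1 and 1.98-fold in replicate 2. Clusters of 10 kb or more in the proximal 3 Mb numbered 3 in replicate 1 and 27 in replicate 2. The rest of 3L had 0 in either replicate. The median combined score was 0.745 in the inner and 0.350 in the outer part, and 0.351 in the rest of 3L.

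The replicate lists recovered the wide clusters in different ways. The widest member, at 23441554 to 23477860 (36.3 kb, combined score 1.13), held 8 separate replicate 1 clusters that covered 61.5% of it and a single replicate 2 cluster that covered 99.97%. The next, at 23679128 to 23711974 (32.8 kb, 1.21), held 4 replicate 1 clusters and 1 replicate 2 cluster, with 57.6% and 96.9% of its length covered. The third, at 23287720 to 23317314 (29.6 kb, 1.22), held 4 and 2 clusters. The fourth, at 24507774 to 24535098 (27.3 kb, 1.17), held 5 and 1, and the fifth, at 24039738 to 24061532 (21.8 kb, 0.839), held 4 and 1. Of the 112 members found in both replicates, 42 held at least 2 replicate 1 clusters, and 19 held at least 2 replicate 2 clusters. Their median cover was 56.7% by replicate 1 and 98.2% by replicate 2, and replicate 2 covered more of the member in 107 of 112. In 32 of the 112 a single replicate 2 cluster stood against at least 2 replicate 1 clusters.

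Of the 303 members, 112 (37.0%, exact binomial 95% interval 31.5 to 42.7%) overlapped a cluster in both replicate lists by at least 1 bp. This compares with 22.3% of all 12660 combined clusters. The share was 31.3% in the proximal 3 Mb of 2L, 23.8% in that of 3R, 41.6% on 3LHet and 42.3% on chromosome 4. A further 114 members (37.6%) overlapped replicate 2 only, against 29.9% of all combined clusters. Just 2 (0.660%) overlapped replicate 1 only, against 3.82%, and 75 (24.8%) overlapped neither list, against 43.9%. These intervals allow for counting error alone, and adjacent clusters may share a source. Overlap arises more easily where cover is higher, and how much of these shares goes with cover was not tested.

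By part, 96 of 187 inner members were found in both lists (51.3%, 43.9 to 58.7%), and 16 of 116 outer members (13.8%, 8.09 to 21.4%). In the rest of 3L the share was 359 of 1727 (20.8%, 18.9 to 22.8%). The split was placed where the cover of these same replicate lists changes. The shares and intervals by part therefore describe the parts and are no test of a difference. No inner member was found in replicate 1 alone, which at 0 of 187 allows a share of up to 1.95% (exact interval). The median width of members found in both lists was 6.58 kb, and their median score was 0.844. Those in replicate 2 only had 2.14 kb and 0.423, and those in neither had 1.26 kb and 0.350. Every one of the 34 members of at least 10 kb, and 71 of the 77 of at least 5 kb, was found in both lists. Wide clusters were found in both lists about as often elsewhere. Of all combined clusters, 275 of 283 of at least 10 kb were in both. From 5 to 10 kb it was 602 of 730, against 37 of 43 members.

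**Figure D3:**
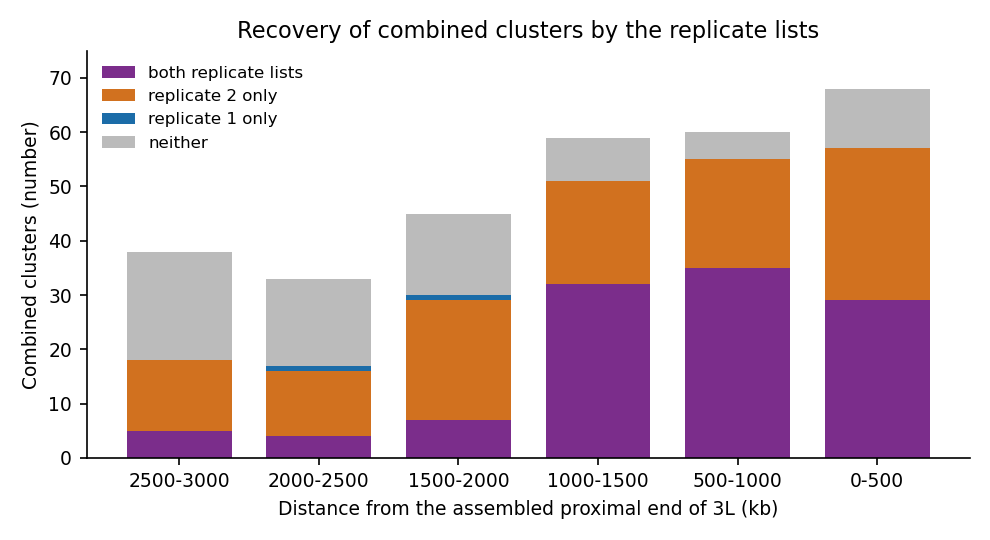
Number of combined clusters in each 500 kb step from the assembled proximal end of 3L (x axis, kb, arm end at the right), split by whether they overlap clusters of both replicate lists, of replicate 2 only, of replicate 1 only or of neither. The 3 steps nearest the arm end hold 32, 35 and 29 clusters found in both, and the 3 outer steps hold 5, 4 and 7.

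Seen from the replicates, nearly all replicate 1 clusters of the proximal 3 Mb recurred. Of 186, 182 (97.8%, 94.6 to 99.4%) had a replicate 2 cluster over them, against 86.0% of the whole replicate 1 list and 378 of 497 (76.1%, 72.1 to 79.7%) in the rest of 3L. The share was about as high in other densely covered sequence, at 97.2% in the proximal 3 Mb of 2L, 98.6% on chromosome 4 and 226 of 226 on 3LHet. In the other direction 116 of 244 replicate 2 clusters (47.5%, 41.1 to 54.0%) were overlapped by replicate 1, against 41.7% of the whole replicate 2 list and 45.4% (42.0 to 48.9%) in the rest of the arm. That share pools unlike parts. As a description, it was 100 of 179 (55.9%) in the inner and 16 of 65 (24.6%) in the outer part. For replicate 1 clusters it was 166 of 167 in the inner and 16 of 19 (84.2%) in the outer part. Counted in bases, 98.2% of the replicate 1 cover of the proximal 3 Mb lay under replicate 2 and 44.7% of the replicate 2 cover lay under replicate 1. The corresponding shares in the rest of 3L were 73.0% and 41.7%. Replicate 1 clusters of the proximal 3 Mb were thus almost nested in those of replicate 2.

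The 4 replicate 1 clusters without a partner were all under 2 kb wide. Of these, 3 lay in the outer part, at 22247111 to 22248478 (score 0.444), 22674844 to 22676149 (0.635) and 22840277 to 22841731 (0.422). The fourth, at 24476497 to 24478111, lay 66.3 kb from the arm end and had a score of 2.16, the highest of all replicate 1 clusters in the 3 Mb. These 4 were singled out after their values were seen.

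By combined score alone, the leading members found in both lists gathered towards the outer edge of the dense part. The highest was at 24019422 to 24022522, a cluster of 3.10 kb whose combined score was 1.78, beside 1.43 and 2.00 in replicates 1 and 2. The next 2 were wider, at 23109768 to 23119954 (10.2 kb) with scores of 1.70, 1.29 and 2.03, and at 23141770 to 23151200 (9.43 kb) with 1.62, 0.983 and 2.08. The fourth, at 23371874 to 23379240 (7.37 kb), scored 1.49, 0.953 and 1.85. The fifth, at 23072044 to 23093814 (21.8 kb), scored 1.47, 1.80 and 1.82, with 4 replicate 1 clusters inside it. Of the 112 members found in both lists, 32 lay between 1000 and 1500 kb from the arm end and 96 in the inner part. Of the 10 leading members, 8 lay between 1000 and 1500 kb from the arm end, and 9 lay in the inner part. The remaining ones there, at 23326118 to 23333546, 23094868 to 23107670, 23404244 to 23409234 and 23242588 to 23255734, had combined scores of 1.23 to 1.29. The cut at 10 fell among close scores, with 1.2317 for the tenth member. Members at 1202, 814 and 827 kb followed with 1.2312, 1.2285 and 1.2265. Scores went along between the replicates over the 112 members (Spearman's rho 0.71 for the highest score of each replicate in the member, as a description). The combined score followed replicate 2 (rho 0.95) more closely than replicate 1 (rho 0.74). The highest score was taken among at least 2 replicate 1 clusters in 42 of the 112 members. For replicate 2 this was so in 19, and its bearing on the 2 rho values was not tested. Ranked by replicate 1 score instead, the leading members were 24475978 to 24485928 (2.16), 23072044 to 23093814 (1.80) and 23649812 to 23666376 (1.75). They lay 62.6, 1461 and 885 kb from the arm end. The 2.16 of the first is the score of the replicate 1 cluster at 24476497 to 24478111, which no replicate 2 cluster overlapped. The median combined score of all members was 0.784 at 1000 to 1500 kb, 0.764 at 500 to 1000 kb and 0.676 nearer the end.

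**Figure D4:**
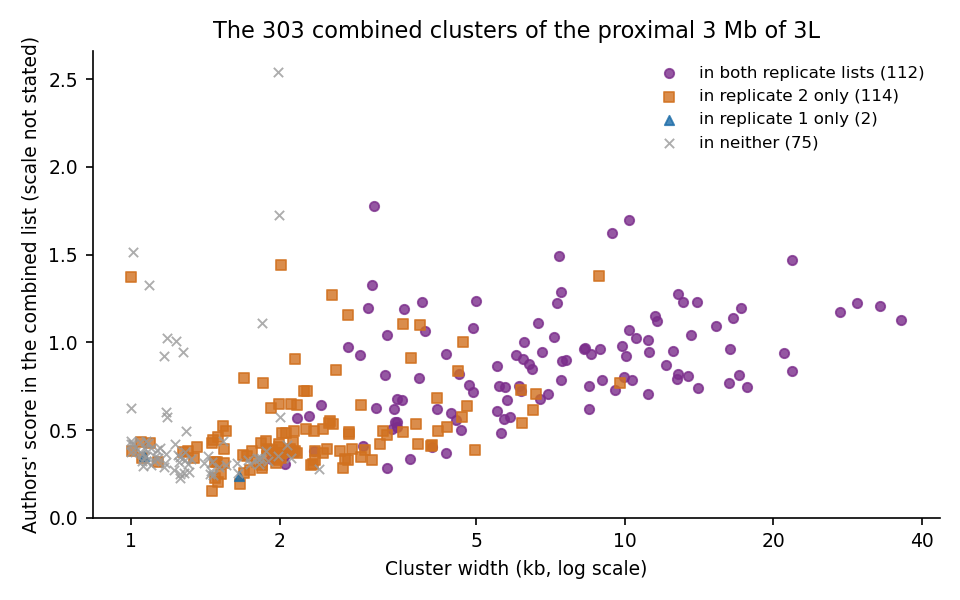
Width (kb, log scale) and authors' score in the combined list for each of the 303 combined clusters, marked by the replicate lists they overlap. The 34 clusters of at least 10 kb are all found in both lists, as are 275 of 283 in the whole combined list. The highest score, 2.54, belongs to a cluster found in neither.

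The sparse outer part held isolated clusters that both replicates found. Ranked sixth among the leading members was 21871582 to 21874658, 2.67 Mb from the arm end. It was 3.08 kb wide with a combined score of 1.33. Its scores in replicates 1 and 2 were 1.24 and 1.44, and their clusters covered 96.6% and 99.2% of it. Its score in replicate 1 was the highest of the 19 replicate 1 clusters in the outer part, and its score in replicate 2 was the highest of the 65 replicate 2 clusters there. Of the other outer members found in both lists, 23040908 to 23044848 (combined score 1.07) belonged to the fringe of the dense part. The next were 22093068 to 22095814 (0.973) and 22826646 to 22835124 (8.48 kb, 0.749). The 16 had scores from 0.309 to 1.33.

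Some short members had high combined scores but no counterpart in either replicate list. The highest score of all 303, 2.54, belonged to a cluster of 1.99 kb at 23433738 to 23435726, and 3 clusters of the combined list carry exactly this score. The next 4 such members were 24448290 to 24450284 (1.73), 24264970 to 24265978 (1.52, a score shared by 7 clusters), 23493360 to 23494446 (1.33, shared by 3) and 23068060 to 23069898 (1.11). All 5 were under 2 kb wide and lay in the inner part. Of the 75 members in neither list, 7 scored above 1, and all 7 lay in the inner part. The share above 1 was not counted for the whole list. Clusters in neither list reached higher scores in the rest of 3L (3.05), the proximal 3 Mb of 2L (3.20) and 3LHet (3.20). They reached lower ones in the proximal 3 Mb of 3R (0.948) and on chromosome 4 (1.20). Across the whole combined list the highest was 4.05. Scores shared exactly with another cluster were found for 81 of the 303 members (26.7%), against 37.0% of all combined clusters, and 45 of the 81 were in neither list.

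At the limit of the region, the first member inside was at 21547066 to 21548124 (1.06 kb, score 0.295, in neither list). The first cluster outside it was at 21542016 to 21544372 (2.36 kb, score 0.354, in replicate 1 only), with its midpoint 363 bp short of the limit. The innermost member, at 24540264 to 24543557 (score 1.04), ran past the end of the arm as deposited and was trimmed to it. It was covered to 64.0% by replicate 1 and 98.3% by replicate 2.

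Set against 2L and 3R, the only other arm ends compared, the proximal 3 Mb of 3L had the higher cover. The cover of 18.1% and 39.8% in replicates 1 and 2 stood against 15.5% and 30.1% on 2L, so 3L was 1.25 ± 0.106-fold higher (SD, n = 2), at 1.17-fold and 1.32-fold. Counted over the last 1 Mb only, 3L was not higher, at 0.879 ± 0.170-fold of 2L, which is within the spread between replicates of equal cover. Against the 6.10% and 12.5% of the proximal 3 Mb of 3R, 3L was 3.08 ± 0.154-fold higher. Both arms of chromosome 3 end in the same centromere, but 3L had 34 combined clusters of at least 10 kb in its proximal 3 Mb and 3R had 2, while 2L had 25. In replicate 1 there were 3 on 3L, 0 on 3R and 4 on 2L. In replicate 2 there were 27, 0 and 24.

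The inner 1.5 Mb lay near 3LHet in cluster density, median width and median score, and its cover was somewhat higher in both replicates. As a description, 51.3% of its combined clusters were found in both replicate lists, against 41.6% (36.2 to 47.3%) on 3LHet. The inner part, at 33.8% and 70.1% in replicates 1 and 2, had 1.20 ± 0.0974 times the cover of this scaffold (2.56 Mb), at 26.7% and 62.2%. Its cluster density was 1.14 ± 0.167-fold that of 3LHet, which is within the spread between replicates of equal density, and its median width was 1.08-fold in each replicate. The median score was 0.670 and 1.00 in the inner part against 0.710 and 1.01 on 3LHet, a difference of -0.0400 in replicate 1 and -0.0139 in replicate 2. The inner part stood at 0.859-fold of chromosome 4, the small and largely heterochromatic autosome, in replicate 1 and at 1.09-fold in replicate 2. Chromosome 4 was covered to 39.3% and 64.3%, so the order of the 2 was not the same in the replicates. The median score of the inner part was above that of chromosome 4 by 0.0831 in replicate 1 and by 0.349 in replicate 2. The proximal 3 Mb as a whole, outer part included, had 0.659 ± 0.0273 times the cover of 3LHet.

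**Figure D5:**
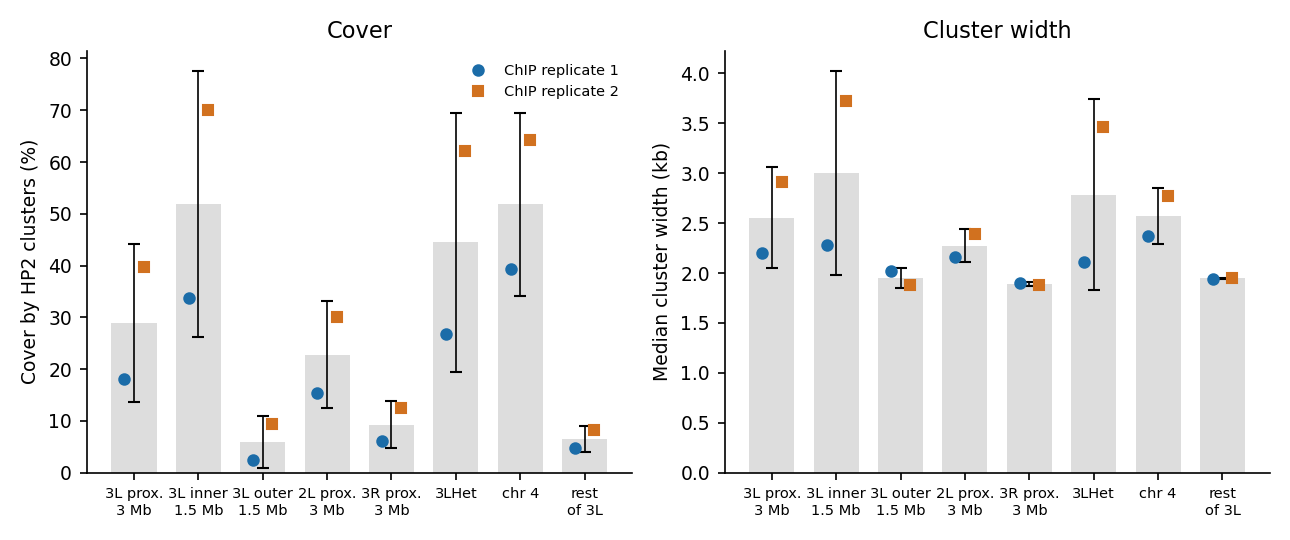
Cover by HP2 clusters (percent, left) and median cluster width (kb, right) in the proximal 3 Mb of 3L, its inner and outer 1.5 Mb, the proximal 3 Mb of 2L and 3R, 3LHet, chromosome 4 and the rest of 3L. Points are the 2 ChIP replicates, bars their mean and error bars the SD (n = 2). The inner part lies at 33.8% and 70.1% beside 26.7% and 62.2% on 3LHet, and the outer part at 2.45% and 9.47% beside 4.70% and 8.23% in the rest of 3L.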

How the data were processed

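HP2 ChIP-seq of 2 ChIP and 2 input libraries from larval nuclei was analysed from 3 deposited lists of enriched regions, on FlyBase release 5 per the file headers. Reads were aligned with Bowtie 0.12.7, per the submitters' processing notes. The deposited score of each cluster is the authors' own value. The sources used here do not state the region caller, its threshold, the scale of the score or how the combined list was made. No list of the input libraries was analysed here, and they act only through those calls.

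Clusters reaching past a chromosome end were trimmed, and regions were assigned by midpoint. Cover, density, width, score, gaps and overlap (at least 1 bp) were computed in each list with Python 3.11.15, numpy 2.4.6, pandas 2.3.3 and scipy 1.17.1. The counting was tested on simulated lists. Shares have exact (Clopper-Pearson) 95% intervals. Comparisons give each replicate's value and the mean ± SD over 2 libraries. Depth is unknown, so no value was weighted by it.

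The members and comparisons were chosen with earlier results of these data known. Named were the 10 leading members found in both lists, the 5 widest, the 5 leading ones in neither list, those at the limits, and the 5 most and 5 least covered windows. The split at 1.5 Mb was added after seeing the data. The gene table at hand is on release 6, so clusters were assigned to no gene, and no sequence was read.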

Additional observations from a re-analysis of the deposited data

How the results depend on the processing

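No paired analysis was possible because no list of the input libraries was analysed here and every value comes from the ChIP lists alone. Apart from leaving out a replicate, 28 of 68 alternative values stayed within the spread of the reported one (the SD over replicates, or the interval of a share). With 2 replicates a single one always lies within 1 SD of their mean, so its value says nothing about stability.

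Leaving out either replicate gave a cover of proximal 3L over the rest of the arm of 3.85 to 4.83-fold, a density of 2.14 to 2.69-fold, a width ratio of 1.13 to 1.49, a score difference of 0.159 to 0.306, and cover ratios of 1.17 to 1.32 to 2L, 2.97 to 3.19 to 3R, 0.639 to 0.678 to 3LHet and 9.92 to 14.0 for the innermost over the outermost Mb. The shares of overlap need both lists. With the higher-scoring 50% of each list the values came to 9.70-fold (cover), 6.00-fold (density), 0.111 (score difference), 6.47 (3R), 0.619 (3LHet) and 25.5 (innermost over outermost Mb). With the combined list they were 2.81-fold (cover), 1.26-fold (density), 2.27 (3R) and 5.83 (innermost over outermost Mb). Merging clusters within 1 kb gave a density of 1.99-fold and a width ratio of 1.58. A proximal window of 2 Mb gave 6.29-fold cover, 3.34-fold density and 3.77 to 3R, and one of 1 Mb gave 6.29, 3.73 and 4.58. The window of 1 Mb gave 0.879 ± 0.170 to 2L, on the other side of 1 from the reported value but by less than the SD. End blocks of 500 kb gave 8.73 for the inner over the outer end.

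The split chosen after seeing the data moved most values. The inner 1.5 Mb alone gave 7.85-fold cover, 3.99-fold density and 1.20 to 3LHet, above 1 where the whole 3 Mb lay below. The outer 1.5 Mb alone gave a mean of 0.836-fold cover (0.521 and 1.15 in replicates 1 and 2) and 0.846-fold density (0.549 and 1.14). The replicates thus differed in direction, but the outer part holds the end of the dense stretch of replicate 2. The outer part also gave a width ratio of 1.00, a score difference of 0.0167 and 0.122 to 3LHet.

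The share of combined clusters found in both replicates (37.0%) was 13.9% with a reciprocal overlap of 50%, 21.1% where 50% of the cluster had to be covered, 44.4% with the higher-scoring 50%, 44.4% over 2 Mb and 50.0% over 1 Mb. The share of replicate 1 clusters overlapped (97.8%) was 29.0% with reciprocal overlap and 93.5% with lists of equal length. For replicate 2 (47.5%) the values were 22.1% with reciprocal overlap, 32.4% with 50% covered, 56.3% with the higher-scoring 50%, 59.6% with lists of equal length and 54.5% over 1 Mb. The causes of these shifts were not tested. The unknown depth of the libraries limits every comparison between the replicates.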
